A study of Mus musculus with 16 samples.

Results

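Epithelial transport of sodium, chloride, bicarbonate and acid was followed through 9 genes in mouse small intestine: the kinase Sgk1, the ubiquitin ligase Nedd4l, the sodium channel subunit Scnn1a, the exchangers Slc9a3, Slc26a3 and Slc26a6, the chloride channel Cftr and the carbonic anhydrases Car4 and Car2. They were chosen by gene symbol, with earlier results of these data known, and are 9 of the 24420 features in each of 2 deposited tables. Because the choice used measured values, the differences of these 9 genes between genotypes are given as descriptions without p-values. RNA was measured by 3' tag sequencing, which reads each transcript near its polyadenylated end. The enterocyte experiment held 4 WT and 5 Mfge8 null libraries of primary enterocytes, the absorptive cells of the gut lining. The intestine experiment held 4 WT and 3 Cd36 null libraries of small intestinal RNA. All mice were of strain C57B6 per the labels, and age, sex, diet, the segment of gut, how the null alleles were made and whether animals were pooled are not given in the sources used here.

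In the gut epithelium sodium enters from the lumen through sodium-hydrogen exchangers and, where it is expressed, the epithelial sodium channel, and the sodium pump carries it out at the base of the cell. SGK1, a kinase whose transcript is induced by glucocorticoids and mineralocorticoids, phosphorylates NEDD4L, a ubiquitin ligase that removes the sodium channel from the membrane. Carbonic anhydrases supply the protons and bicarbonate that sodium-hydrogen and chloride-bicarbonate exchangers trade across the brush border, and CFTR releases chloride and bicarbonate from crypt and villus cells.

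Promoter sequences from RefSeq (GRCm38.p6, the assembly of mm10) were matched by symbol for 6 of the 9 genes and searched for the letters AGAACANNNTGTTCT, the palindromic glucocorticoid response element, which reads the same on both strands. The search was made because Sgk1 is a textbook glucocorticoid target. Each window covered 300 bases around an annotated start, and 3 of 32851 windows (0.00913%) held these letters: 1 each of Acnat2, Sgk1 and Gm35041. Sgk1 has 6 annotated windows and 1 of them matched. The stretch below is the 250 bases before that start (chr10:21993640-21993889, plus strand), with the match in capitals. It holds no Sgk1 exon and lies inside the gene as its longest annotation runs. For comparison, the 250 bases before the start of Car4 (chr11:84957504-84957753, plus strand), the gene with the largest difference among the 9 in enterocytes, are shown beneath and hold no such match.
Sgk1: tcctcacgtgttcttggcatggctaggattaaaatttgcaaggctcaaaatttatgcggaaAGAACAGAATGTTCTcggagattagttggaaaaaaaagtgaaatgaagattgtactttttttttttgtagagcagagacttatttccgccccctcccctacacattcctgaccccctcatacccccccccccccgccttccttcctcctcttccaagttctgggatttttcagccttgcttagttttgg
Car4: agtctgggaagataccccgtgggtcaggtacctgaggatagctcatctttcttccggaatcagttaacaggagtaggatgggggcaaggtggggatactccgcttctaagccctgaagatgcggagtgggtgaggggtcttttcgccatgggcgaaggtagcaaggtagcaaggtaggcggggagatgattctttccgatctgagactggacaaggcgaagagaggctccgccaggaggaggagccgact
The Sgk1 match spans positions 21993701 to 21993715 and ends 175 bases before the start at 21993890 and 951 bases before the last annotated start at 21994666. A match of letters is a description of the sequence, and binding was not measured.

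Levels are given as normalised reads, in which a size factor for each library takes out its depth. Depth was 1618369 to 2459812 gene-assigned reads in enterocyte libraries and 850297 to 1000694 in intestine libraries. The targeted genes matched the labels: Mfge8 was at 14.8 ± 6.70 in WT and 3.45 ± 2.43 in null enterocytes (SD, n = 4 and 5), and Cd36 was at 111 to 116 in WT and 6.48 to 16.0 in null intestine. The part of either gene that was deleted is not given, so remaining tags do not show whether a functional transcript was left. Intestine libraries of the same genotype agreed at about counting noise, where the chi-square statistic divided by its degrees of freedom was 0.987 to 1.12 in 9 pairs, against 6.26 to 20.2 in 16 such pairs of enterocyte libraries. They were therefore counted as 1 sample per genotype, with ranges in place of SDs and no p-value. Every intestine library held both Xist (441 to 498 in WT and 319 to 360 in null) and the Y-linked Ddx3y. Enterocyte markers summed to 23747 to 24580 normalised reads in the intestine libraries, whereas 6 smooth muscle markers summed to 2.07 to 9.95 and Cnn1 was at 0, so the defining markers of gut muscle were close to absent from RNA labelled as intestine. Whether each enterocyte library is from its own animal is not given in the sources used here, so the p-values refer to the spread among libraries, part of which may be technical.

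The 9 genes spanned a wide range of levels, and their order differed between the 2 sample types. In WT enterocytes Sgk1 was the most abundant (258 ± 133, SD, n = 4), followed by Slc26a3 (141 ± 23.2), Nedd4l (93.6 ± 9.09), Cftr (73.7 ± 24.3), Car2 (62.9 ± 21.3), Car4 (47.8 ± 26.5) and Slc26a6 (27.5 ± 3.82). Slc9a3 (6.75 ± 5.58) and Scnn1a (4.07 ± 2.54) were close to the detection limit. Among neighbours in that order, the ranges over libraries were apart only between Slc26a3 and Nedd4l and between Slc26a6 and Slc9a3. Tags come from transcript ends, so levels of different genes can be compared without a correction for length.

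In WT intestine Slc26a3 (581 to 658) and Car4 (498 to 532) led, ahead of Nedd4l (149 to 174), Cftr (139 to 157), Sgk1 (76.9 to 115), Car2 (55.8 to 73.0), Slc26a6 (8.21 to 11.4), Scnn1a (4.16 to 7.68) and Slc9a3 (1.03 to 7.68). Here the ranges of neighbours overlapped only for Nedd4l and Cftr and for Scnn1a and Slc9a3. In RPM, reads scaled to the same total in each library, the WT intestine mean was 22.3 times the WT enterocyte mean for Car4, 9.35 times for Slc26a3, 4.29 times for Cftr and 3.60 times for Nedd4l, and 0.765 times for Sgk1. The 2 tables were normalised separately and differ in preparation, so these ratios are descriptive and were not tested.

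**Figure D1:**
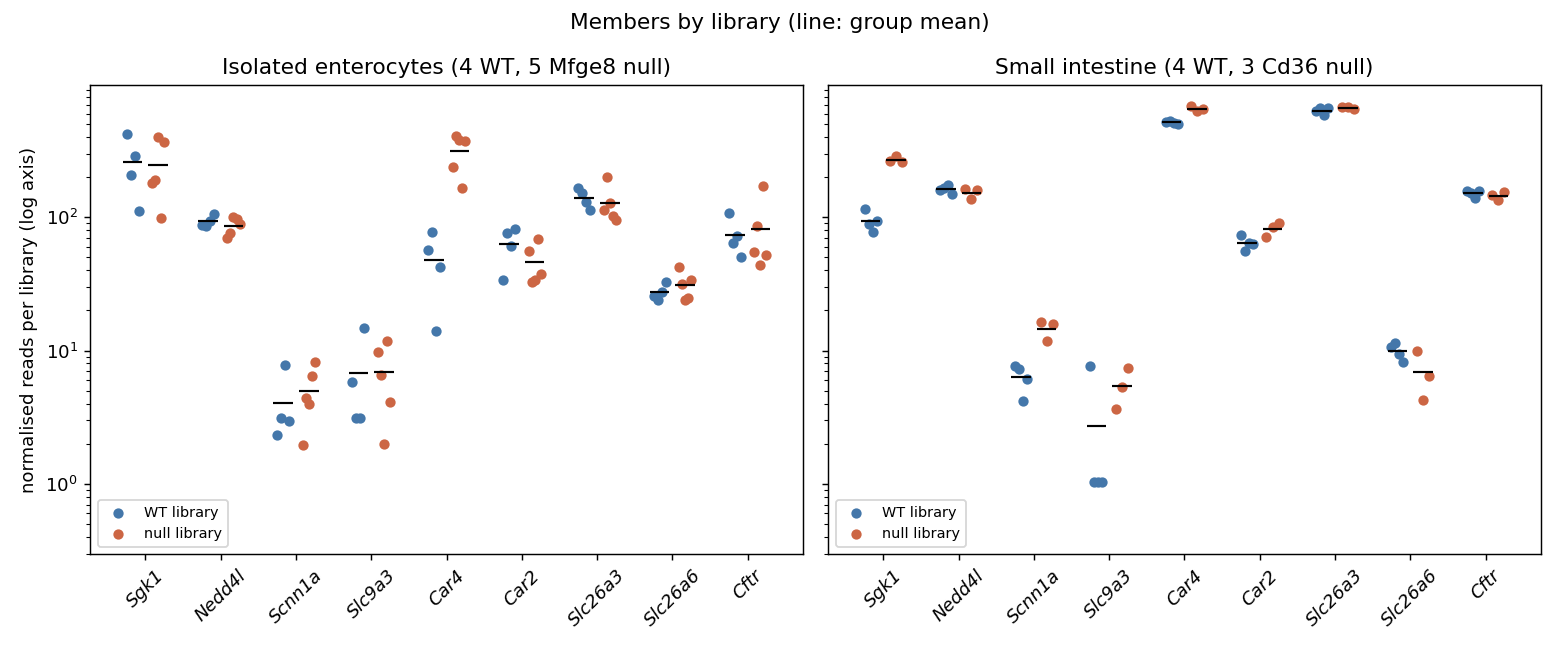
Normalised reads of the 9 genes in each library (points, log axis) with group means (lines), for isolated enterocytes (left, 4 WT and 5 Mfge8 null libraries) and small intestine (right, 4 WT and 3 Cd36 null libraries). The genotypes stand apart for Car4 in enterocytes and for Sgk1, Scnn1a and Car4 in intestine.

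Among the 9 genes, Car4 differed most between Mfge8 null and WT enterocytes, and was higher in every null library. Car4 is a carbonic anhydrase anchored to the outer face of the brush border (chromosome 11, 84957786 to 84966044, mm10). Its 4 WT libraries held 57.3, 76.9, 14.1 and 42.7 normalised reads and its 5 null libraries 237, 408, 378, 166 and 374. The lowest null library, null 4, lay above the highest WT library, WT 2. The group means were 47.8 ± 26.5 and 312 ± 105, a difference of 2.83 on the log2(value + 1) scale with a standard error of 0.38. Car4 was the 1 gene of the 8 tested that limma called at an adjusted p of 0.05, where 3.21% of all 9432 genes tested were called (1.58% higher and 1.63% lower), and the only one whose groups did not overlap, where 6.42% did not; the choice of the gene used this contrast, and nothing is read from the count. The difference was 2.35 to 3.14 over 20 alternative settings, among them leaving out each library in turn and a covariate for position along the gut (2.73).

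Marker genes of other cells and of gut regions gave the following values in the same libraries. The 7 enterocyte markers had a median log2 difference of 0.11 with none called. T cell markers summed to 194 to 629 in WT and 499 to 978 in null libraries. None of these 6 was called, but all 6 were above 0 (median 0.96) and 4 had an unadjusted limma p under 0.05. B and plasma cell markers summed to 17.5 to 124 and 206 to 499. Of 4 measured, 1 was called (Jchain, higher) and 3 were above 0 (median 0.99), and Cd79a was at 0. None of 7 enteroendocrine markers was called, with a median of -0.53 and all 7 below 0. Nor was any of 5 crypt and proliferation markers (median 0.72, 4 above 0), 6 villus tip markers (0.51, 5 above 0) or 5 tuft cell markers (0.53, all 5 above 0). The same held for 7 goblet cell markers (median 0.002), 6 Paneth cell markers (-0.02) and 2 markers of macrophages and dendritic cells (0.44). Of 5 proximal markers 1 was called, Onecut2, lower (list median -0.65), and of 4 ileal markers 1, Slc51b, higher (list median 0.69). The part of these cells and regions in the Car4 difference was not tested. In bulk RNA, more cells of a type and more RNA per cell cannot be told apart.

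The cytosolic carbonic anhydrase Car2 (chromosome 3, 14886273 to 14900770) was not called. Its WT libraries were at 33.9, 75.9, 60.4 and 81.4 and its null libraries at 55.8, 32.9, 34.0, 68.5 and 37.7, which overlap, with a log2 difference of -0.44 (SE 0.28). In RPM, Car4 averaged 26.1 in WT enterocytes, 159 in Mfge8 null enterocytes and 581 in WT intestine, so the null enterocytes lay between the other two groups. Car2 averaged 34.4, 23.3 and 72.1 in the same groups.

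Sgk1 (chromosome 10, 21882184 to 21999903) differed more between enterocyte libraries of 1 genotype than between genotypes. WT 1 to 4 held 424, 208, 290 and 111 normalised reads, and null 1 to 5 held 180, 190, 400, 98.5 and 367. Both groups thus contained low and high libraries, with the highest at 3.82 times the lowest in WT and 4.06 times in null. The log2 difference was -0.08 (SE 0.38), and its sign was positive without WT 1 (0.21), WT 3 (0.03) or null 4 (0.20). Nedd4l, the ligase that SGK1 phosphorylates, was the steadiest of the 9 in enterocytes, at 86.3 to 106 in WT and 69.5 to 101 in null libraries (log2 -0.12, SE 0.17). Scnn1a, the alpha subunit of the epithelial sodium channel (chromosome 6, 125320659 to 125344943), had 2 to 10 reads in each enterocyte library and was not tested.

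The exchangers and the chloride channel overlapped between the enterocyte genotypes. Slc26a3, the main chloride-bicarbonate exchanger of the gut surface (chromosome 12, 31390871 to 31473917), was at 114 to 166 in WT and 95.1 to 202 in null libraries (log2 -0.18, SE 0.21). Slc26a6, an exchanger of chloride for bicarbonate and oxalate (chromosome 9, 108853283 to 108913049), was at 23.9 to 32.8 and 24.0 to 42.1 (log2 0.16, SE 0.23). Slc9a3, which encodes the brush border sodium-hydrogen exchanger NHE3 (chromosome 13, 74121457 to 74169442), had 2 to 15 reads a library and a log2 difference of 0.08 with a standard error of 0.53. For a gene of so few reads a moderate difference was not detectable at this depth. Cftr (chromosome 6, 18170687 to 18322768) was at 108, 64.5, 72.1 and 50.6 in WT and at 54.8, 86.6, 43.9, 170 and 51.7 in null libraries (log2 0.01, SE 0.33). With the regional score, described below, as a covariate its log2 difference was 0.68, which limma did not call. Null 4 was the high library for Cftr and the low one of its group for Car4 and Sgk1. Exons of Cftr and Nedd4l overlap the antisense genes Gm15592 and A330084C13Rik, and as the strand setting of the counting is not given in the sources used here, their reads cannot be told apart.

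In the intestine experiment Sgk1 and Scnn1a were higher in every Cd36 null library than in any WT library, whereas Nedd4l overlapped. Sgk1 was at 115, 88.8, 76.9 and 94.4 normalised reads in WT 1 to 4 and at 263, 289 and 258 in Cd36 null 1 to 3. The highest WT library, WT 1, was well below the lowest null library, null 3. The summed reads, 372 in WT and 841 in null, gave a ratio of 2.85 after scaling for depth, with a 95% exact counting interval of 2.52 to 3.23. That interval covers counting error only, since nothing in the sources used here says that reads were collapsed to molecules. In RPM, the null libraries (285 to 318) also lay above all 9 enterocyte libraries (48.2 to 224), although the tables were normalised apart.

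Scnn1a was at 7.68, 7.23, 4.16 and 6.16 in WT intestine and at 16.3, 11.7 and 15.7 in null intestine. The groups held 25 and 46 reads in all, with a ratio of 2.32 (1.40 to 3.95). Reads of Scnn1b and Scnn1g, the beta and gamma subunits, were at 0 in every library of both experiments. Nedd4l was at 161, 166, 174 and 149 in WT and 164, 136 and 159 in null libraries, with a ratio of 0.948 (0.840 to 1.07).

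Of the 9 genes, 3 were past 1.5 fold in Cd36 null intestine, all higher (Sgk1, Scnn1a and Slc9a3), where 9.63% of the 9314 genes compared were past it in either direction, 4.06% higher and 5.57% lower. Libraries did not overlap for 3 (Sgk1, Scnn1a and Car4), where 16.5% of all genes did not. The selection of the genes used this contrast too. Slc9a3 rested on few reads: WT libraries held 8, 1, 1 and 1 and null libraries 4, 5 and 8, which overlap, and the ratio of 1.95 had an interval of 0.862 to 4.61.

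Car4 was at 520, 532, 512 and 498 in WT and 680, 624 and 654 in null intestine, without overlap. The ratio was 1.27 (1.19 to 1.35), under 1.5 fold. On the log2(value + 1) scale the difference was 0.34, against 2.83 in the Mfge8 comparison. The ratio was 1.28 for Car2 (1.07 to 1.53), 1.05 for Slc26a3 (0.991 to 1.11), 0.965 for Cftr (0.852 to 1.09) and 0.712 for Slc26a6 (0.402 to 1.23), the last on 39 and 22 reads. All 4 had overlapping libraries. With 1 sample per genotype these differences have no replicate check. The 2 experiments differ in sample type and normalisation, and a difference between the 2 null effects was not tested.

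**Figure D2:**
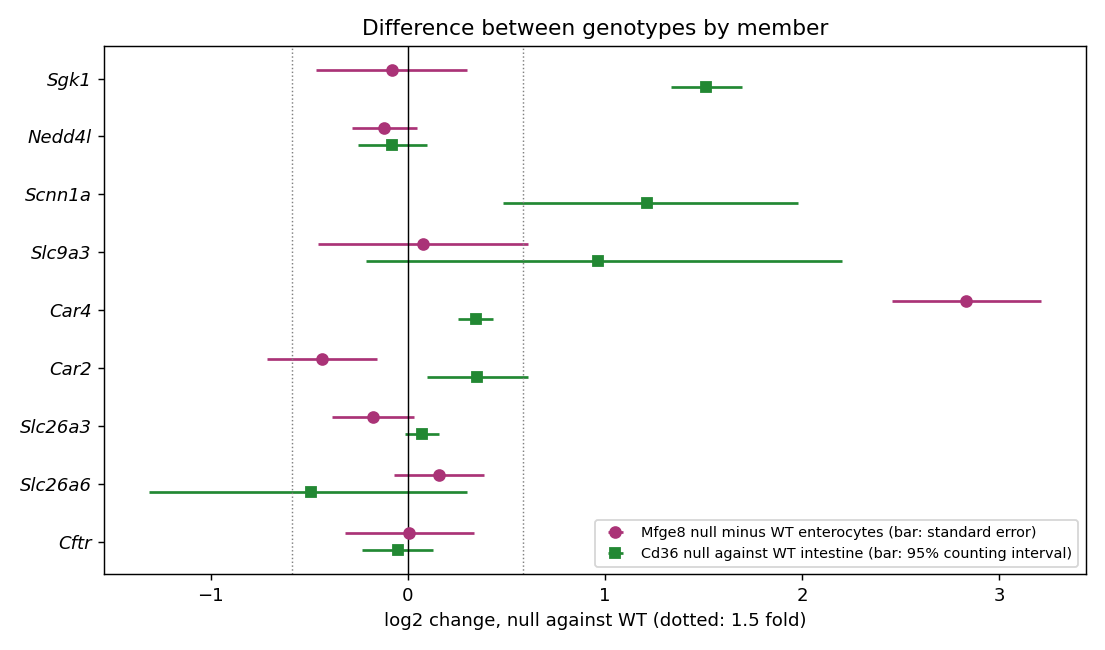
Difference between null and WT on the log2 scale (horizontal axis) for each gene (vertical axis): circles, Mfge8 null enterocytes with limma standard errors; squares, Cd36 null intestine as the ratio of summed reads with 95% counting intervals; dotted lines, 1.5 fold. Car4 is far from 0 in enterocytes (2.83) and Sgk1 in intestine (1.51), and Scnn1a was not tested in enterocytes.

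Marker lists in the Cd36 comparison gave the following values beside Sgk1 and Scnn1a. All 4 measured tuft cell markers were past 1.5 fold higher, and their sum went from 90.3 to 103 in WT to 227 to 239 in null libraries. Of 6 crypt and proliferation markers 3 were lower (summed 312 to 348 and 220 to 240), as were 2 of 6 T cell markers (285 to 378 and 216 to 232). Among 5 ileal markers 1 was higher and 2 were lower, including the bile acid-binding protein Fabp6 at 263 to 284 and 62.9 to 77.7. Of 7 enteroendocrine markers 1, Tph1, was past 1.5 fold, higher (summed 282 to 316 and 398 to 418), and none of 7 goblet cell markers was (7580 to 7872 and 9006 to 9236), with all 7 above 0 in both lists. The 1 measured fibroblast marker, Dcn, was lower (log2 -1.13). Single markers of the villus tip (Nt5e, higher) and of Paneth cells (Mmp7, lower) were past 1.5 fold. Mmp7 was at 3.84 to 10.3 in WT and 2.71 to 3.70 in null libraries. It reached the minimum value of 5 only in WT, the group where it was higher, so nothing is read from its difference. Of the 6 Paneth cell markers 2 were above 0. None of the 7 enterocyte markers was, and their sums overlapped (23871 to 24580 and 23747 to 24435). Xist was lower in the null libraries without overlap (441 to 498 and 319 to 360), while Ddx3y overlapped. The part of these cell types, or of the sex of the animals, in the Sgk1 and Scnn1a differences was not tested.

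The other genes of these pathways were taken from 7 lists of 98 genes, of which 66 were measured well enough in each experiment. In Mfge8 null enterocytes 3 rose and 2 fell by limma over all genes tested (7.58% of 66, against 3.21% of all genes), and the median log2 difference was 0.16 against 0.001 for all genes. In Cd36 null intestine 2 were past 1.5 fold, both higher (3.03%, against 9.63%), with a median of 0.04 against -0.002. The lists were chosen with earlier results of these data known, so nothing is read from these shares.

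Sodium channel regulators included the 2 paralogs of Sgk1, which changed in opposite directions in Mfge8 null enterocytes. Sgk3, a related kinase with a phosphoinositide-binding domain, fell from 38.6, 43.7, 39.2 and 39.7 in WT to 12.7, 9.87, 28.0, 11.8 and 15.6 in null libraries. The groups did not overlap (log2 -1.41, SE 0.28, limma adjusted p = 0.0103), and the call held in 20 of 20 alternative settings. Sgk2 rose from 44.6 ± 14.3 to 96.2 ± 37.5 (SD, n = 4 and 5; log2 1.07, SE 0.27, limma adjusted p = 0.0442), with WT at 28.1, 45.7, 62.7 and 41.7 and null at 68.6, 58.1, 154, 95.3 and 105. WT 3 lay above null 2, and the call was lost in 9 of 20 alternative settings (adjusted p from 0.0150 to 0.337 by limma and 0.0105 by DESeq2), including those without WT 1, WT 2, WT 4, null 3, null 4 or null 5. The highest limma adjusted p, 0.337, came with the regional score as covariate. The other 11 of 13 measured genes did not pass, and the list median was 0.09. In Cd36 null intestine none of 12 was past 1.5 fold (median -0.01). The largest difference was that of the ubiquitin ligase Nedd4 (log2 -0.41), and Sgk2 and Sgk3 were within 1.5 fold (50.9 to 79.0 against 53.4 to 63.8, and 17.4 to 23.9 against 26.2 to 30.5).

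Among glucocorticoid responsive genes, 1 of 9 measured in enterocytes passed. The metallothionein Mt1, a metal-binding protein, fell from 790 ± 229 to 420 ± 120 in Mfge8 null enterocytes (SD, n = 4 and 5; log2 -0.91, SE 0.21, limma adjusted p = 0.0246). Its WT libraries held 1097, 814, 686 and 562 and its null libraries 365, 407, 319, 382 and 627, so null 5 overlapped with WT. The call was lost in 6 of 20 alternative settings (adjusted p from 0.00678 to 0.118 by limma and 0.00413 by DESeq2), including those without WT 1, WT 2, null 1, null 3 or null 4. Its highest limma adjusted p, 0.118, again came with the regional score as covariate. The list median was 0.07. In Cd36 null intestine none of 8 was past 1.5 fold (median 0.07), and the largest difference was that of Tsc22d3 (log2 0.53), a leucine zipper protein induced by glucocorticoids.

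**Figure D3:**
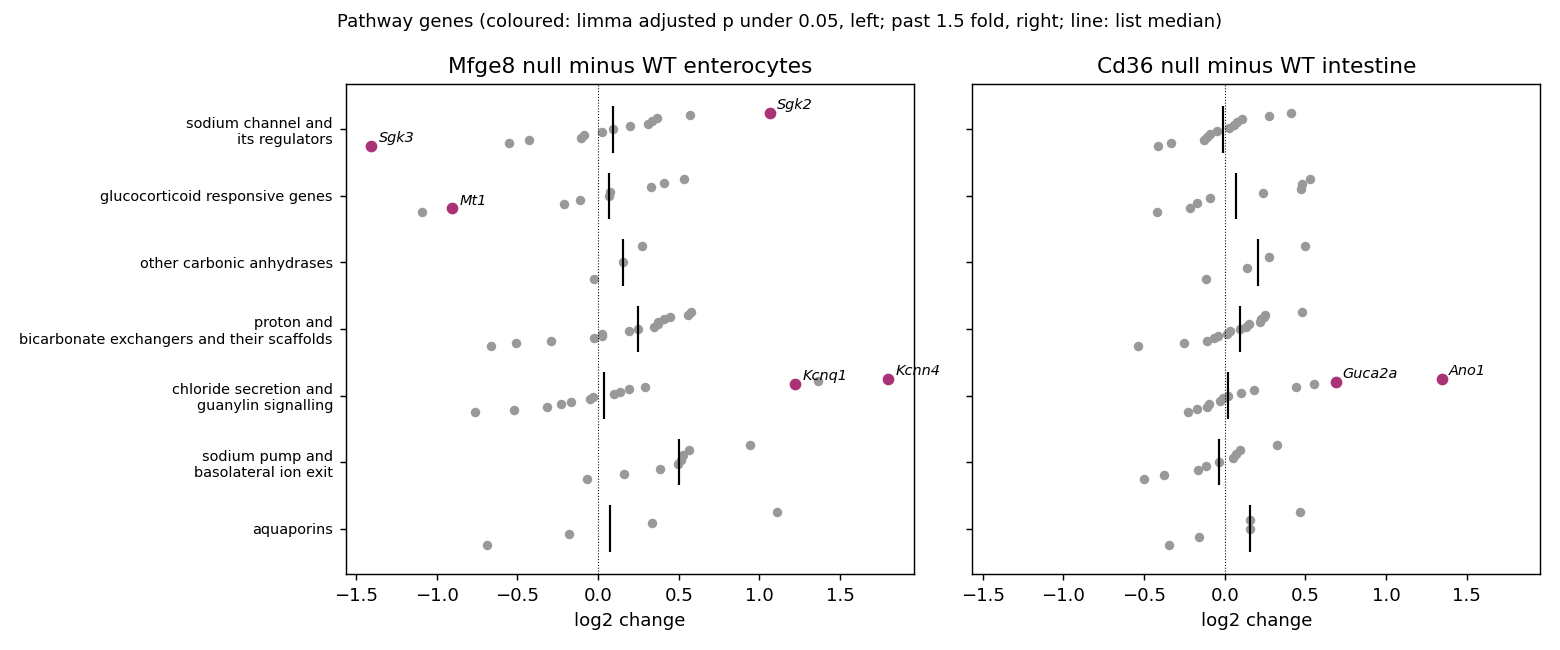
Log2 difference (horizontal axis) of every measured gene of the 7 pathway lists (rows), in Mfge8 null against WT enterocytes (left) and Cd36 null against WT intestine (right). Coloured and named points passed limma at an adjusted p of 0.05 (left: Sgk2, Sgk3, Mt1, Kcnn4, Kcnq1) or 1.5 fold (right: Guca2a, Ano1), grey points did not, and bars mark list medians.

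Of 14 other carbonic anhydrases, 3 were measured in enterocytes (Car8, Car9 and Car13) and none passed by limma, with 0 at an unadjusted p under 0.05. The median was 0.16, with Car8, a family member without catalytic activity, furthest from 0 (log2 0.27, SE 0.52). Car13, a cytosolic form, was at 89.2 ± 15.7 in WT and 88.5 ± 21.2 in null libraries. In intestine 4 were measured and none was past 1.5 fold (median 0.21; Car8 log2 0.50).

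Proton and bicarbonate exchangers and their scaffolds had 15 measured genes in each experiment and no call in either. The median was 0.25 in enterocytes, with 3 at an unadjusted limma p under 0.05, and 0.10 in intestine. Slc4a5, a sodium bicarbonate cotransporter, was furthest from 0 in both (log2 -0.66 and -0.54).

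In chloride secretion and guanylin signalling, 2 potassium channels rose in Mfge8 null enterocytes and 12 of 14 measured genes did not pass (median 0.03). Kcnn4, the calcium-activated potassium channel that sustains chloride secretion, went from 1.17, 1.04, 2.35 and 5.96 in WT to 11.8, 7.67, 7.99, 9.64 and 14.8 in null libraries (log2 1.80, limma adjusted p = 0.0427). Kcnq1, a voltage-gated potassium channel, went from 7.01, 5.20, 7.06 and 9.93 to 21.5, 17.5, 14.98, 16.1 and 20.5 (log2 1.22, limma adjusted p = 0.0342). Neither gene overlapped between genotypes, as for 6.42% of all genes tested. Kcnn4 reached the minimum value of 5 in every null library but in WT only in WT 4. It thus entered the test through the group where it was higher, and nothing is read from its call or lack of overlap. With no minimum value neither gene was called (limma adjusted p = 0.0664 and 0.0830). Each rested on few reads, and each call was lost in 12 of 19 alternative settings, with limma adjusted p up to 0.292 and 0.200. Both of these highest values came with the regional score as covariate. Leaving out 1 library ended the Kcnn4 call for all but WT 4 and null 2 and the Kcnq1 call for all but WT 4.

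Guca2a, which encodes the hormone guanylin that raises cyclic GMP and opens CFTR, was at 321, 289, 283 and 285 in WT and 489, 502 and 435 in Cd36 null intestine. The ratio was 1.61 (1.49 to 1.74), without overlap. Ano1, a calcium-activated chloride channel, was past 1.5 fold as well, on 16 and 32 reads (ratio 2.53, 1.35 to 4.93). It reached the minimum value of 5 in every null library but in WT only in WT 1. Ano1 thus entered the comparison through the group where it was higher, and nothing is read from its ratio. The other 11 of 13 genes of this list were within 1.5 fold, with a median of 0.02. Cftr itself had a ratio of 0.965, as given above.

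The sodium pump and basolateral ion exit had no call among 8 genes in enterocytes (median 0.50, 7 of 8 above 0, 3 at an unadjusted limma p under 0.05) or 9 in intestine (median -0.03). The pump regulators Fxyd5 (log2 0.94) and Fxyd3 (-0.50) were furthest from 0 in the 2 experiments. Aquaporins, the water channels, had no call among 4 and 5 measured genes, with medians of 0.08 and 0.16 and the largest differences at Aqp7 (1.11) and Aqp11 (0.47).

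Because Sgk1 varied widely within a genotype, its variation over the 9 enterocyte libraries was compared with that of the 9 measured glucocorticoid responsive genes, on log2(value + 1). Sgk1 and the list were chosen with earlier results of these data known, so the p-values of these relations are not an independent test. Tsc22d3 followed it: WT 1 to 4 held 153, 93.6, 114 and 72.5 and null 1 to 5 held 98.9, 78.9, 116, 60.0 and 153. The libraries with most Sgk1 (WT 1, null 3 and null 5) had the most Tsc22d3, and those with least (WT 4 and null 4) had the least. Pearson's r was 0.937 (2-sided exact permutation p = 0.000463, adjusted over 9 genes 0.00417) and Spearman's rho 0.90 (p = 0.00203, adjusted 0.0183; exact permutation). Without the 2 libraries farthest from the median Sgk1 level r was 0.878. None of the other 9430 genes tested had an r with Sgk1 as high. With the genotype means subtracted, r was 0.94 for Tsc22d3 and as high or higher for 5 other genes (0.053%), which are named below.

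None of the other 8 genes passed the adjustment. Per1 came next (r = 0.635, adjusted permutation p = 0.288), and Fkbp5 (0.236), Dusp1 (-0.163) and Nr3c1, the glucocorticoid receptor (0.118), showed weak relations. Sequencing depth had an r of 0.309 with Sgk1 (exact permutation p = 0.418) and 0.324 with Tsc22d3 (p = 0.391). In intestine Tsc22d3 was at 15.6 to 21.7 in WT and 22.2 to 31.7 in null libraries, without overlap, as for Sgk1. Klf9 was also higher without overlap, whereas Mt1 (574 to 620 and 510 to 537) and Mt2 were lower without overlap. Of the 8 genes of this list measured there, 4 were above 0. Libraries did not overlap for 16.5% of all genes, with 1 sample per genotype. Sgk1 carries the letters of the response element shown above. Whether glucocorticoids had a part in the variation of Sgk1 or Tsc22d3 was not tested. Tsc22d3 was not among the 3 genes with a match, which says only that these letters are not in its windows.

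**Figure D4:**
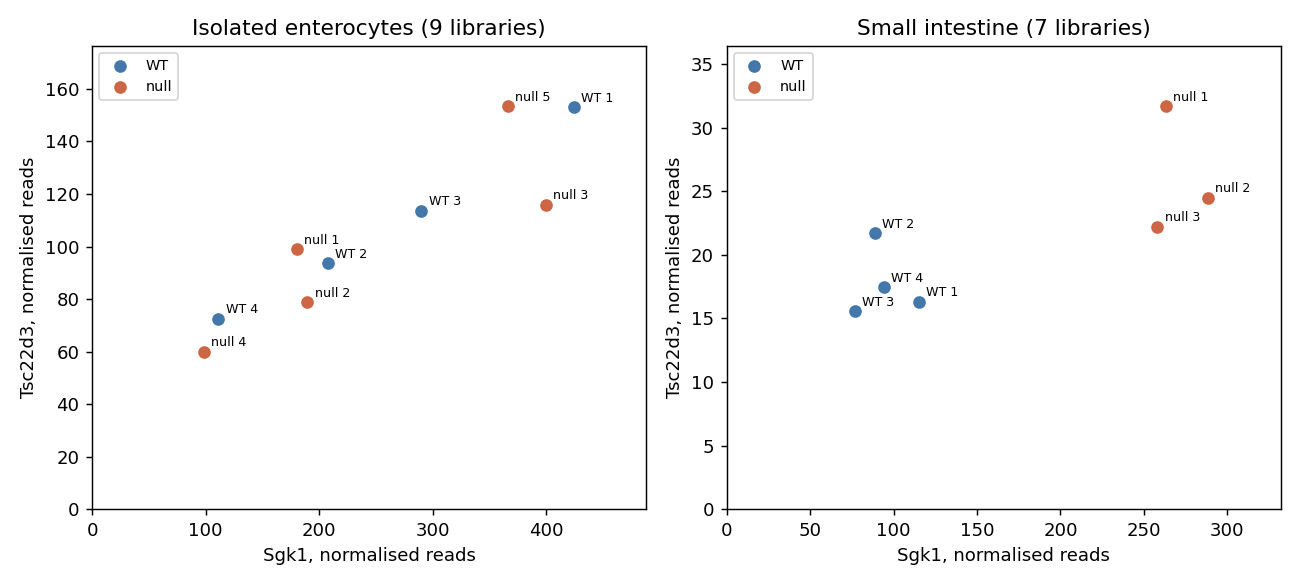
Tsc22d3 (vertical axis) against Sgk1 (horizontal axis), both in normalised reads, for the 9 enterocyte libraries (left) and the 7 intestine libraries (right), coloured by genotype. In enterocytes both genotypes lie along 1 line (r = 0.937 on the log2 scale), and in intestine the null libraries lie above and to the right of WT.

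Over 21 pairs of 7 of the measured genes (Car4 left out because it separates the genotypes), no correlation passed the adjustment. The strongest were those of Sgk1 with Slc9a3 (r = -0.792, rho = -0.75, exact permutation p = 0.0137, adjusted 0.288) and with Car2 (r = -0.718, rho = -0.583, p = 0.0368 by exact permutation, adjusted 0.386). Without the 2 libraries of most extreme Sgk1 they were -0.873 and -0.630.

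The tested genes with the most similar profile to Sgk1 over the 9 enterocyte libraries, after the genotype means were subtracted, were Clec2h (r = 0.96), Coa3 (0.96), Brk1 (0.95), Sf3b6 (0.94) and Dctn3 (0.94). For Car4 they were Dnajc4 (0.97), Ptcd2 (0.97) and Mecr (0.92), for Car2 Parp4 (0.97), Rprml (0.94) and Ikzf5 (0.94), and for Cftr Tspan31 (0.96), Il18 (0.95) and Ckb (0.95). For Slc26a3 they were Isca2, Ogfod1 and Erp44 (each 0.97), and for Slc26a6 Frs2 (0.96), Arnt (0.96) and Clec2d (0.95). Slc9a3 was closest to Trrap (0.96), Tmem185b (0.96) and Rnf145 (0.95), and Nedd4l to Fam84a (0.96), Prr13 (0.93) and Rpl7l1 (0.93). Each was picked as the best of 9432 genes on the same 9 libraries, which differ in depth and in markers of position along the gut. These values are therefore a description.

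Markers of position along the gut differed between enterocyte libraries and were summarised by a score of proximal minus ileal markers. The score is high where proximal markers are high, and the position itself is not given in the sources used here. The score was 1.86, 0.64, 0.37 and 0.02 in WT 1 to 4 and -0.55, 0.39, -1.37, 0.93 and -2.30 in null 1 to 5. With genotype in the model, no gene of 9423 had a slope on the score at a limma adjusted p of 0.05 (0%), and 650 (6.9%) had an unadjusted p under 0.05. Cftr had the steepest slope of the 8 tested genes, 0.51 log2 units per unit of score (SE 0.11, limma adjusted p = 0.153; 0.0172 to 0.435 over 13 alternative settings). Its 3 lowest scoring libraries, null 5, null 3 and null 1, held 51.7, 43.9 and 54.8 normalised reads, and the 2 highest, WT 1 and null 4, held 108 and 170. The slope thus did not pass over all genes, and the other 7 had limma adjusted p of 0.768 to 0.999. Car4 had a slope of -0.08 (SE 0.19). The score includes Onecut2 and Slc51b, which were themselves called between genotypes, and its 3 lowest libraries were all null. Position and genotype therefore cannot be fully told apart by it, and the part of position in the Car4 difference was not tested. The slope of Sgk1 was -0.26 (SE 0.19).

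**Figure D5:**
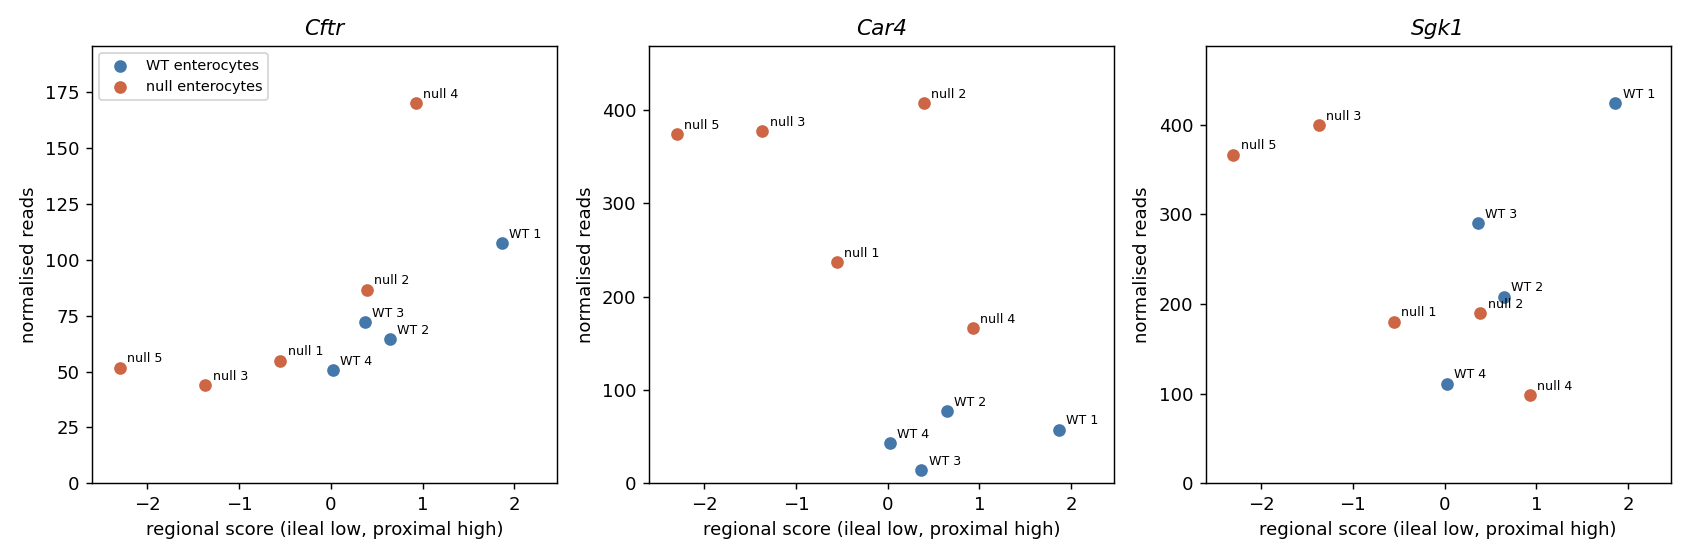
Normalised reads of Cftr, Car4 and Sgk1 (vertical axes) against the regional score (horizontal axis, ileal low and proximal high) in the 4 WT and 5 Mfge8 null enterocyte libraries. Cftr is highest in the 2 libraries of highest score, and Car4 is at 166 or more in every null library.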

How the data were processed

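The deposited values are a normalised signal, 1 table per experiment with 24420 features. The submitters' processing notes name DESeq2 2.11.40, HTSeq 0.91, HISAT2 2.1.0, Trimmomatic 0.38.1 and the build mm10. The settings used, and whether the molecular identifiers of the library kit were used, are not given in the sources used here. Values were whole multiples of 1 step per library, so reads were recovered. For WT 4 and null 3 of the enterocyte table the step is less certain.

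A gene was compared if its value reached 5 in a number of libraries no less than the size of the smaller group. Enterocytes were tested with limma 3.58.1 (R 4.3.3, trend, log2(value + 1), 2-sided, Benjamini-Hochberg, threshold 0.05). For intestine, mean log2(value + 1) was compared with 1.5 fold, with exact (Clopper-Pearson) intervals of 95% on ratios of summed reads. Log2 values of low genes understate the change. edgeR 4.0.16 and DESeq2 1.42.0 on recovered reads were among the alternatives. Only the limma fits, of genotype in the enterocyte experiment and of a slope on a random score, were tested on simulated data. Correlations were tested by exact permutation.

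The 9 genes and all lists were chosen with earlier results of these data known. Named genes are the 9, the called genes of each pathway list or else its gene furthest from 0, and for each tested gene of the 9 the 3 (Sgk1: 5) with the most similar profile. Positions are from GENCODE release M21. Null mice, WT mice and replicates were assigned from the sample titles.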

Additional observations from a re-analysis of the deposited data

Results flagged for a closer look

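Within each of 27 groups of 4 or 5 libraries of the 9 genes, the highest and lowest library were compared with the rest by Dixon's criterion, which marks about 1 group in 20 by chance, and 2 were marked. Scnn1a in WT enterocytes was at 7.84 normalised reads (10 reads) in WT 3, far from the other 3 WT libraries (2.34 to 3.12). Slc9a3 in WT intestine was at 7.68 (8 reads) in WT 1, while the other 3 libraries held 1 read each. Both genes are close to the detection limit.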

How the results depend on the processing

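Of the 9 genes and the named pathway genes, 280 of 333 values kept their direction and their side of the threshold in the Mfge8 comparison. A call was lost in 39 and the sign changed in 14. In the Cd36 comparison 230 of 231 kept their direction, and in quantile-normalised data Slc26a3 there was at -0.01. The side of 1.5 fold was not always kept there. Slc9a3 was past it in 11 of 12 settings. Slc26a6, not past it in the main setting, was past it in 3 of 13. The same held for Car8 and Fxyd3 in 2 of 13 and for Slc4a5 and Tsc22d3 in 2 of 14. The number of genes called in the Mfge8 comparison, 303, was 107 with the regional score as covariate and 116 without null 3 and null 5 (chosen after seeing the data), and 140 to 388 when 1 library was left out, the lowest counts coming when WT 1 (140), WT 2 (173), null 3 (185) or null 5 (199) was missing. The number past 1.5 fold in the Cd36 comparison, 897, was 413 with a pseudocount of 5, 2207 without a filter, 262 with a minimum value of 20, 2450 with the smaller fold limit and 886 to 1176 with 1 library left out. The regional slope, with 0 calls, had 3 with ileal markers only and 0 to 5 with 1 library left out (5 without null 2).

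Some signs changed: with the regional score as covariate Slc26a3 was at 0.035, Car8 at -0.17 and Cftr, with no change of sign, at 0.68, and with 1 enterocyte library left out Sgk1 ranged from -0.43 to 0.21, Slc9a3 from -0.15 to 0.50, Cftr from -0.30 to 0.21 and Car8 from -0.26 to 0.62. Regional slopes were 0.16 for Car2 with ileal markers only and 0.089 for Car4 with proximal markers only, and with 1 library left out they ranged from -0.21 to 0.15 for Car2 and from -0.20 to 0.15 for Car4. The cause of these changes was not tested.

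Replicate numbers did not pair the samples: the correlation of same-numbered libraries was -0.12, -0.07, 0.21 and 0.09 in enterocytes and -0.01, 0.003 and 0.0001 in intestine, and not every library correlated best with its own number. With the replicate number as a block the counts were 229 in the Mfge8 comparison, 973 in the Cd36 comparison and 46 for the regional slope, where Sgk1 went from -0.26 to 0.17, Slc9a3 from 0.30 to -0.094 and Nedd4l from -0.043 to 0.015. Depth limits Scnn1a, Slc9a3 and, in intestine, Slc26a6 and Ano1, which rest on few reads.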
